A study of Mus musculus with 6 samples.

Results

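The genes described are 10 markers of brown and white fat (Ucp1, Adipoq, Cidea, Thrsp, Car3, Fabp4, Plin1, Cfd, Adig and Fasn), measured in heart tissue of mice. All probe sets that the array's annotation gives to 1 of these symbols were taken, 16 of the 45037 probe sets tested, and they stand for 8 of the 10 genes. Plin1 and Cfd had no probe set of that name in the annotation used and are not analysed here. Some of the genes had been picked because they were high in replicate 1 of both genotypes, so their height there is a description and was not tested. The study compared wild-type mice with knockout mice of miR-1-2, all at postnatal day 10, with 3 arrays for each genotype. Each array was taken as a separate mouse. The deleted gene encodes a precursor of miR-1, which striated muscle makes in abundance. The labels give neither strain, sex nor allele of these mice, and do not say how the hearts were dissected.

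Fat cells store triglyceride in lipid droplets and secrete hormones into the blood. Brown fat burns that lipid for heat, through an uncoupling protein that lets protons leak back into the mitochondrial matrix. In young mice, brown fat lies around the great vessels in the chest, next to the heart and the thymus. Heart muscle takes up and burns fatty acids as well, and shares many genes of lipid use with fat, while a few genes, Ucp1 and Adipoq among them, are known as close to exclusive to fat cells.

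Promoter windows from RefSeq (build GRCm38.p6) were taken for 7 of the 10 genes, each with 250 bases before and 50 after the start of the gene. Car3 and Fabp4 had no entry, and Cidea was left out because of its chromosome. The 4 printed here belong to the uncoupling protein, the fat hormone and the pair of lipid synthesis genes that went opposite ways on the arrays below. They lie at chr8:83290098-83290397 (plus strand, Ucp1), chr16:23146286-23146585 (plus, Adipoq), chr7:97417501-97417800 (minus, Thrsp) and chr11:120824498-120824797 (minus, Fasn). Capitals mark matches, on either strand, to CCAAT, to AGGTCA (the core of nuclear receptor sites), to TGACG (part of the cAMP response element), to TATAAA or to GGGCGG.
Ucp1: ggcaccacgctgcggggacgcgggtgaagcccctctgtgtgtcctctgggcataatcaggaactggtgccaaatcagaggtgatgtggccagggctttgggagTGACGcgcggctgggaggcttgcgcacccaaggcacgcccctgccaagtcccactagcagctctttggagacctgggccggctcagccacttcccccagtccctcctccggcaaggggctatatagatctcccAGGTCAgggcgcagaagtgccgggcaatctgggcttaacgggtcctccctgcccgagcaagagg
Adipoq: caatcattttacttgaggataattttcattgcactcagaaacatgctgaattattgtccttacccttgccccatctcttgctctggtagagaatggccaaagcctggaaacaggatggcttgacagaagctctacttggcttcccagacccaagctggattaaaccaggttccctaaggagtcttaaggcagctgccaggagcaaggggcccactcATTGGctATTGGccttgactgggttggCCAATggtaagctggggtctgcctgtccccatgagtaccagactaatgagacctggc
Thrsp: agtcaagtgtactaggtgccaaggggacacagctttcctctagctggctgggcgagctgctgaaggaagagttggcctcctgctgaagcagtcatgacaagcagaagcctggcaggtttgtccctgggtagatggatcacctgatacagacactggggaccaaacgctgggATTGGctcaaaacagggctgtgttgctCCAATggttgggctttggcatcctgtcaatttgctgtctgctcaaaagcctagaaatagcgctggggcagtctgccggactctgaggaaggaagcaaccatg
Fasn: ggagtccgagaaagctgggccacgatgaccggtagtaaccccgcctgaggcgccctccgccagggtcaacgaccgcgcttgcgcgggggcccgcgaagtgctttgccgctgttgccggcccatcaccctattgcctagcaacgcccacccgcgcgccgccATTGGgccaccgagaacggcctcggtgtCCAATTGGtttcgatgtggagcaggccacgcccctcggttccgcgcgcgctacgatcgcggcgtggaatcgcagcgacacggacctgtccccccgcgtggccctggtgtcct
CCAAT was found in the windows of Thrsp, Fasn, Adipoq and Adig, 4 of 7, and in 37.4% of all 32841 windows of this length. Thrsp and Fasn both held it in the stretch just before the start, at -79 and -52 in Thrsp and at -90, -62 and -59 in Fasn, where the last pair overlap. AGGTCA was found in Ucp1 and Adig, 2 of 7, against 16.3% of all windows, and TGACG in Ucp1 alone, against 20.8%. Neither TATAAA nor GGGCGG was in any of the 7 windows, against 13.6% and 35.7% of all windows. The Ucp1 window was 64.7% G or C and that of Fasn 69.3%. These matches describe the letters of the windows only.

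The 6 arrays were alike as a whole, with medians between 6.03 and 6.11 on the log2 scale, on which every value here is given. Heart muscle genes were near the top of the scale on every array: Myh6 lay between 14.31 and 14.40 and Tnnt2 between 13.85 and 14.05. Xist, which is transcribed in female cells, was at 7.55 and 7.57 in knockout replicates 1 and 3 and between 11.91 and 12.19 on the other 4 arrays (1 of 3 knockout arrays high, against 3 of 3 wild-type arrays). Nothing says that a replicate number marks a litter or a day. With 3 arrays in each group, their number limits the precision.

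Of the pair of brown fat genes among the markers, Ucp1 was far higher on the replicate 1 arrays of both genotypes than on the other 4, and Cidea was 1.63-fold higher. Ucp1 encodes the uncoupling protein itself. It was at 9.45, 5.50 and 5.22 in wild-type replicates 1, 2 and 3 and at 10.39, 6.68 and 5.28 in knockout. The replicate 1 arrays stood at least 2.77 above every other array, and knockout replicate 2 was the next highest. As a ratio of the values with the log2 undone, replicate 1 was 17.0-fold above the mean of replicates 2 and 3 in wild type and 21.2-fold above it in knockout. The spread of Ucp1 within the groups ranked 1 among all 45037 probe sets. Cidea acts on lipid droplets and is high in brown fat. Its values were 9.61, 8.81 and 8.73 in wild type and 9.77, 9.21 and 9.18 in knockout. The replicate 1 arrays were again the highest, but only 1.80-fold and 1.48-fold above the others of their genotype.

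Adipoq, which encodes the hormone adiponectin that fat cells secrete, showed the sharpest separation. It was at 6.85, 3.68 and 3.86 in wild type and at 7.32, 3.82 and 3.74 in knockout. The replicate 1 arrays lay 2.99 above all the others, which sat together near the lowest values on the arrays (2.64). Replicate number accounted for 99.1% of the variation of Adipoq over the 6 arrays and genotype for 0.271%. The medians of these shares over all probe sets were 47.0% and 11.3%. Since the genes were partly chosen by their height in replicate 1, nothing is read from the share of Adipoq. Knockout replicate 2, where Ucp1 was 6.68, had no matching height in Adipoq. The ratio of replicate 1 to the others was 8.48-fold in wild type and 11.6-fold in knockout, and values that close to the lowest on an array understate a ratio.

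**Figure D1:**
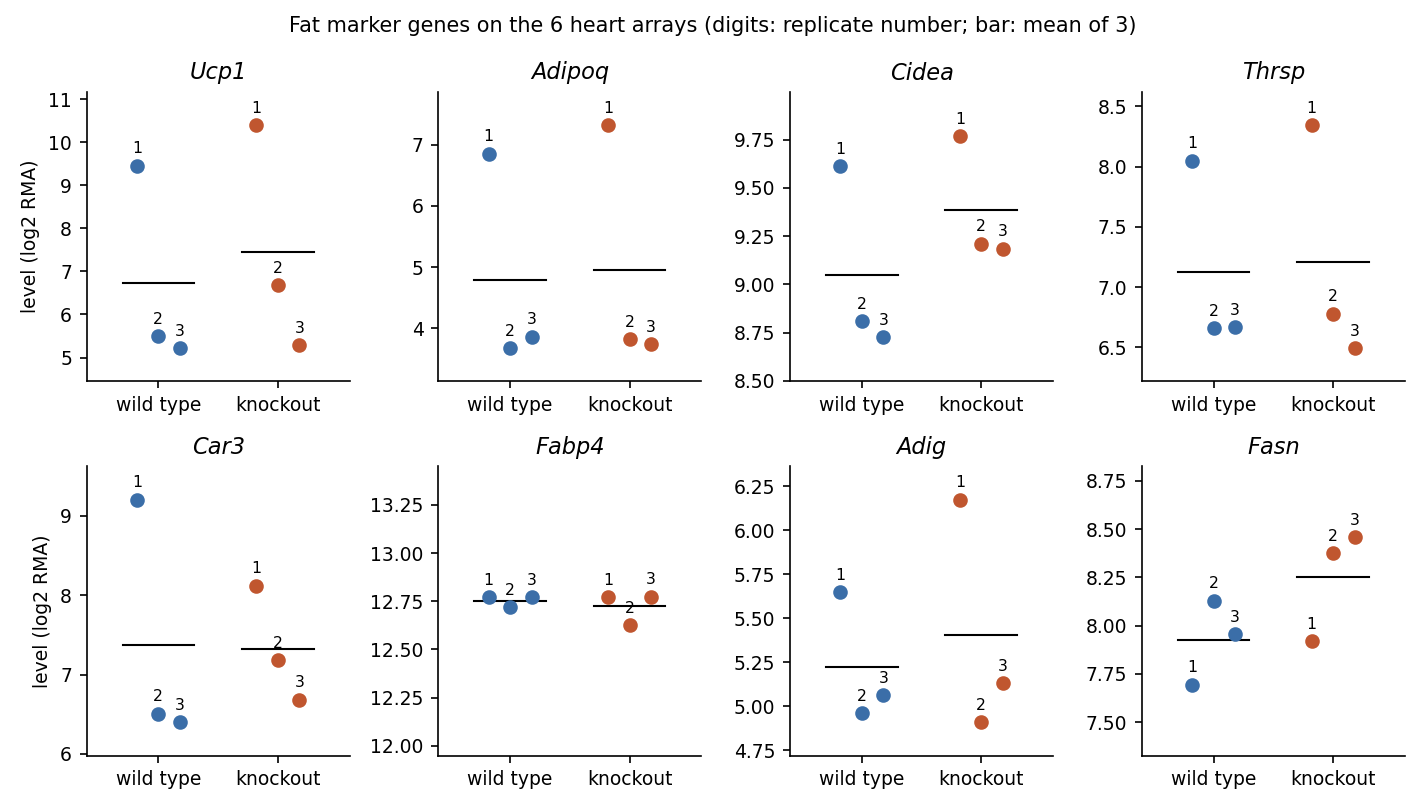
Level of the 8 fat marker genes (log2 RMA, vertical axis, with its own range in each panel) on the 3 wild-type and 3 knockout arrays, each point 1 array with its replicate number and the bar the mean of 3. Replicate 1 of both genotypes is the highest array of its genotype for Ucp1, Adipoq, Cidea, Thrsp, Car3 and Adig, is level with the others for Fabp4 and is the lowest for Fasn.

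The lipid synthesis genes did not move together. Thrsp, a nuclear protein that promotes fatty acid synthesis in fat and liver, was at 8.05, 6.66 and 6.67 in wild type and at 8.34, 6.78 and 6.50 in knockout on its brightest probe set. Here too the replicate 1 arrays stood apart, by 1.27 from the nearest other array. A second Thrsp probe set showed the same order with a smaller gap of 0.45, and the third, which lay between 6.86 and 7.20 on all arrays, did not separate them. Fasn, the enzyme that builds palmitate and a classical partner of Thrsp in lipogenesis, did the opposite: it was at 7.69, 8.13 and 7.95 in wild type and at 7.92, 8.37 and 8.46 in knockout. The replicate 1 arrays were the lowest for Fasn, 0.42 below the mean of the other 4.

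Fabp4, the fatty acid binding protein of fat cells, did not follow the other markers. Its brightest probe set was at 12.77, 12.72 and 12.77 in wild type and at 12.77, 12.62 and 12.77 in knockout, a span of 0.15 over the 6 arrays. None of its 4 probe sets put both replicate 1 arrays above all others, and their spans reached 0.43 at most. Fabp4 is also a gene of the endothelium of capillaries, which heart muscle is rich in. The endothelial markers given below were lower on the replicate 1 arrays, and their part in the level Fabp4 values was not tested.

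Car3 and Adig completed the set of genes that were high in replicate 1. Car3, the carbonic anhydrase of fat and slow muscle, was at 9.20, 6.51 and 6.40 in wild type and at 8.12, 7.18 and 6.68 in knockout on its brightest probe set. In contrast to Ucp1 and Adipoq, Car3 was higher in replicate 1 of wild type than in replicate 1 of knockout, by 1.09. The other Car3 probe sets were dimmer and spanned 0.94, 0.36 and 0.30, with replicate 1 highest in the first pair of these. Adig, a small membrane protein of fat cells, was at 5.65, 4.96 and 5.06 in wild type and at 6.17, 4.91 and 5.13 in knockout, a gap of 0.52 between the replicate 1 arrays and the rest. In all, 9 of the 16 probe sets, from 6 of the 8 genes, had both replicate 1 arrays above the other 4, where 16.6% of all probe sets did, and 1, that of Fasn, had both below, where 14.7% of all did. Since the genes were partly chosen by this height, nothing is read from these shares.

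The separation was not graded in the same way in every gene. From wild-type to knockout replicate 1, Ucp1 was 0.94 higher, Adig 0.53 higher, Adipoq 0.46 higher, Thrsp 0.29 higher and Cidea 0.15 higher, while Car3 was lower. The mean over the 8 genes, taken as the fat level of an array, was 8.66, 7.12 and 7.08 in wild type and 8.85, 7.45 and 7.22 in knockout. By this measure the genotypes overlapped, at 7.62 ± 0.90 (SD, n = 3) against 7.84 ± 0.88. In tissue RNA, more fat cells and more RNA of these genes in each fat cell cannot be told apart. A mean excess of at least 1 (log2) on the replicate 1 arrays was seen for 4 probe sets (Ucp1, Adipoq, Car3 and Thrsp) of the 15 on the whole array (0.0333% of 45037). Since the genes were partly chosen by this height, nothing is read from that share. A mean excess also does not require both arrays to be high. Eif2s3y, 1 of the 15 and named after its values were seen, was at 3.16 in wild-type replicate 1. It was at 7.63 and 8.35 in knockout replicates 1 and 3, the low-Xist arrays. The nearest markers to the bound of 1 were Thrsp above it, at 1.54, and Adig below it, at 0.90.

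Outside the 10 markers, a part of the genes of fat cells was higher on the replicate 1 arrays, none of those listed by as much as Ucp1 or Adipoq. Of 20 other adipocyte genes, 10 had both replicate 1 arrays above the other 4 and 1 had both below, against 15.8% and 19.5% of all 18193 genes. Pparg, the master regulator of fat cell formation, lay between 5.88 and 6.03 on the replicate 1 arrays and between 5.50 and 5.77 on the others. Cebpa, its partner factor, was 0.37 higher in replicate 1 on average, and Cidec, the lipid droplet protein of white fat, 0.63 higher. Agpat2 and Gpd1, which feed glyceride synthesis and were singled out after their values were seen, were 0.69 and 0.52 higher, the first about as much as Cidea (0.71). A probe set of Pck1, which makes the glycerol backbone in fat, was 1.16 higher, more than Adig (0.90), and was also singled out; the brighter probe set of Pck1 was 0.55 higher. Plin4, a lipid droplet protein that heart muscle also makes, was 0.21 lower on average, without both replicate 1 arrays below the rest. The gene with both below was Mest, singled out after its values were seen. Mest was 0.61 lower, at 9.66 and 9.56 in replicate 1 and between 10.06 and 10.34 elsewhere.

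Most other genes of brown fat did not separate the arrays. Of 18 measured, 4 had both replicate 1 arrays above the others and 2 both below (15.8% and 19.5% of all genes), with a median difference of 0.060, where the median over all probe sets was 0.028. Elovl3, which lengthens fatty acids in brown fat, differed by 0.16, and Dio2, which activates thyroid hormone there, by 0.060. The developmental factors Zic1 and Lhx8 lay between 3.13 and 3.68 on all arrays, close to the bottom of the scale. Slc36a2, an amino acid carrier of brown fat named here after its values had been looked at, was at 7.40 and 7.34 in replicate 1 and between 6.49 and 6.93 elsewhere. It had the largest rise of the list, 0.64 on average. The 2 genes with both replicate 1 arrays below were Cited1 and Prdm16, also named after their values had been looked at. Cited1 differed by -0.77, the largest difference of the list in either direction, and Prdm16 by -0.35.

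Secreted factors other than adiponectin were mostly level. Of 12 measured, 4 had both replicate 1 arrays above the rest and 0 below, against the same 15.8% and 19.5%. The clearest was Rbp4, a retinol carrier made by fat and liver, at 6.58 and 6.79 against 5.38 to 5.82. Lep, the hormone leptin of white fat, lay between 4.56 and 4.87 with the arrays mixed, and Retn, resistin, was 0.17 higher in replicate 1. Of 18 other genes of lipogenesis, 3 had replicate 1 above the rest and 5 had it below, near the 15.8% and 19.5% of all genes. Acly and Acacb, early enzymes of that pathway, were 0.24 and 0.15 lower, and Scd1, the desaturase of fat, was 0.55 higher. Fasn thus lay with the part of its pathway that was lower in replicate 1.

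Genes that brown fat shares with heart muscle went both ways. Of 16 measured, 1 had both replicate 1 arrays above the others and 4 both below, against 15.8% and 19.5% of all genes. Fabp3, the heart member of the family of Fabp4, lay between 14.03 and 14.13, and Cd36 and Lpl, which bring fatty acids into the cell, differed by 0.042 and 0.027. Chosen for their size after their values were seen, Pdk4, a brake on glucose oxidation, was 0.42 higher on average and the lipid droplet gene Plin5 0.27 higher. The rise of Pdk4 lay mostly in wild type, at 12.07 in replicate 1 against 11.30 and 11.40. In knockout, Pdk4 was at 10.96, 10.70 and 10.95. Ppara and Ppargc1a, regulators of fatty acid oxidation, were 0.38 and 0.35 lower, and the potassium channel Kcnk3 0.26 lower. The mean of the list was 10.63 and 10.52 on the replicate 1 arrays and between 10.52 and 10.61 on the others.

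Markers of other cells also differed on the replicate 1 arrays, and their part in the results on fat was not tested. Of 20 lymphoid and thymus markers, 11 had both replicate 1 arrays above the other 4 and 0 had them below, against 15.8% and 19.5% of all genes. Cd3d and Cd3e, subunits of the T cell receptor complex, were 0.43 and 0.28 higher there, and Cd8a, a coreceptor, was not (-0.014). The mean of that list was 5.86 in wild-type and 5.72 in knockout replicate 1, and between 5.49 and 5.61 elsewhere. Summed before taking log2, the list lay between 10.38 and 10.59 in wild type and between 10.29 and 10.51 in knockout. Rag1, which cuts the antigen receptor genes in young lymphocytes, was at 5.90 and 4.52 in wild-type and knockout replicate 1 and between 3.68 and 3.96 elsewhere. It was thus higher in wild-type replicate 1, as Car3 was, whereas Ucp1 and Adipoq were higher in knockout replicate 1. Of 9 endothelial markers, 8 were lowest on the replicate 1 arrays (19.5% of all genes were), with a list mean of 8.79 and 8.80 there and 8.95 to 9.10 elsewhere. The summed level was 12.06 to 12.29 in wild type and 12.08 to 12.35 in knockout. Emcn, singled out as the exception, had replicate 1 highest.

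**Figure D2:**
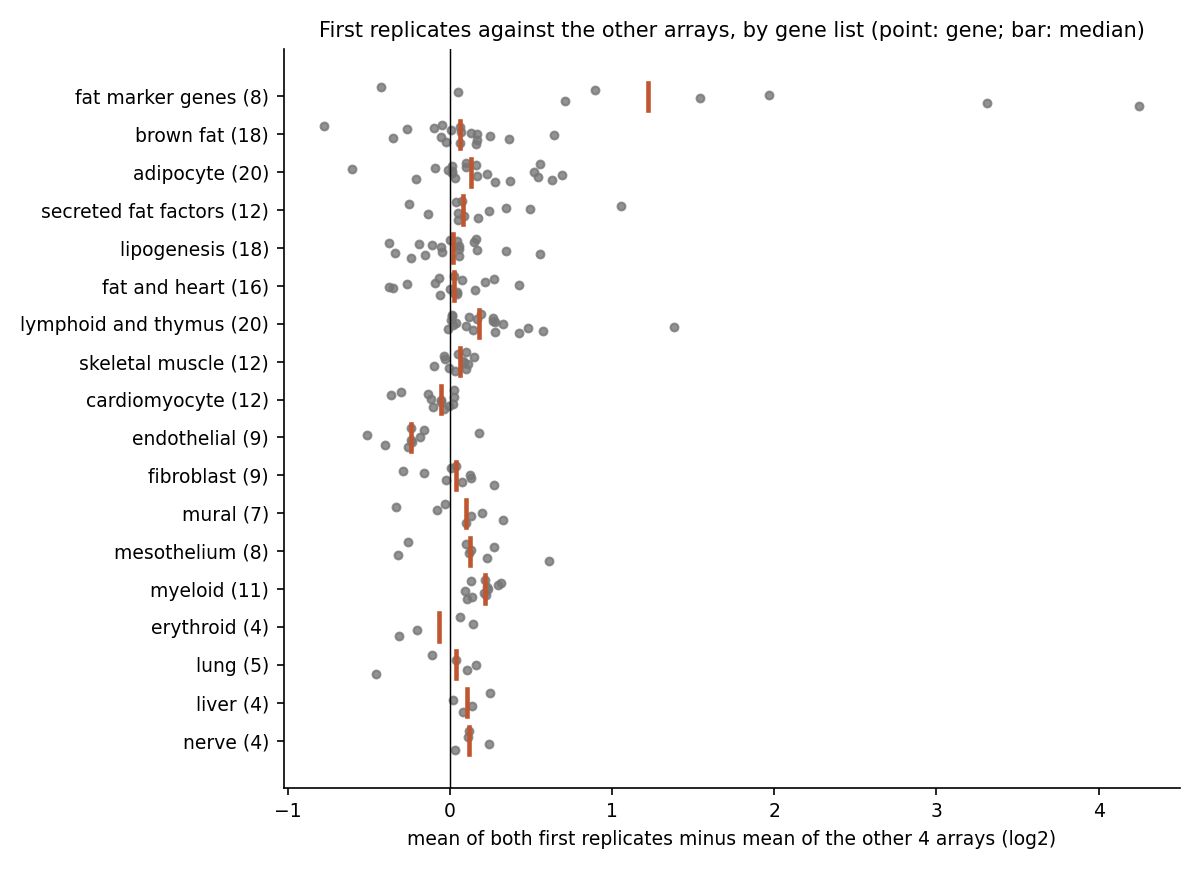
Mean of the replicate 1 arrays minus the mean of the other 4 arrays (log2, horizontal axis) for every measured gene of the fat markers and of 17 other lists, each point 1 gene, with the median of the list as a bar and the number of genes in brackets. The fat markers reach 4.25 (Ucp1), the adipocyte and lymphoid lists lie mostly to the right of 0, and the endothelial list has its median at -0.24.

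The other lists differed among themselves, and are set against the same 15.8% of all genes above and 19.5% below. Of 12 skeletal muscle markers, 2 had both replicate 1 arrays above the rest, and their list mean lay between 5.51 and 5.57 on all arrays. Of 12 heart muscle markers, 0 were above and 5 below, with means from 12.91 to 13.04. Of 11 myeloid markers 2 were above and 0 below, but the median difference was 0.21, larger than the 0.18 of the lymphoid and 0.13 of the adipocyte list. Their mean was 7.55 in wild-type replicate 1, 7.24 in knockout replicate 1 and 7.03 to 7.34 elsewhere. Sftpc, the surfactant gene of lung, was at 7.07 in knockout replicate 2, where Ucp1 was at 6.68, and between 5.27 and 5.76 on the other arrays. Ager, another lung gene, was also highest there, at 6.69 against 6.30 to 6.37. The other lung genes, Sftpb, Sftpa1 and Scgb1a1, were not. They were at 7.06, 4.92 and 5.11 in knockout replicate 2 and reached 7.21, 5.21 and 5.25 elsewhere. A relation of lung genes to Ucp1 was not tested. Of the remaining lists, fibroblast markers counted 2 of 9 above, mural 1 of 7, mesothelial 1 of 8, erythroid 0 of 4, lung 1 of 5, liver 1 of 4 and nerve 2 of 4.

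Among genes outside the markers whose values spanned at least 1, those most like the fat level over the 6 arrays were Prkar2b (Pearson r = 0.98) and Rbp4 (0.95). Prkar2b is the regulatory subunit of protein kinase A that fat cells use, and was at 6.60, 5.33 and 5.63 in wild type and at 6.61, 5.75 and 5.42 in knockout. The next were Igfbp6 (0.81), Clec3b (0.81), Agbl5 (0.80), Nipsnap2 (0.79), Rag1 (0.79), Cbr2 (0.78), Ces1d (0.77) and Hba-a2 (0.74). The most opposite were Otud1 (-0.97), Ccn2 (-0.94), Snap91 (-0.93), Mex3d (-0.91) and Mex3b (-0.90). Ccn2, a matrix growth factor of stretched heart muscle, was at 9.06, 9.73 and 10.16 in wild type and at 8.60, 9.85 and 9.72 in knockout. These are 102 ranked genes over 6 arrays that fall into 2 clusters, so r describes little more than that the replicate 1 arrays stand apart. Of the 10 genes most alike, 5 were also among the 10 when values were taken as deviations from their group means and 6 by Spearman's rho.

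Between the genotypes, none of the 16 probe sets passed. The comparison asks which transcripts of the heart differ without miR-1-2, and limma was fitted to all 45037 probe sets, of which 3 (0.00666%) passed an adjusted p of 0.05. For the 16 fat probe sets the adjusted p was 1.00 throughout; 10 were higher in knockout (47.1% of all probe sets were) and 6 lower, with a median difference of 0.051. An unadjusted p under 0.05 was found for 1 of them, against 3.94% of all probe sets. That was a dim Fabp4 probe set at 7.47, 7.59 and 7.51 in wild type and 7.36, 7.17 and 7.28 in knockout (difference -0.25 ± 0.08, SE; unadjusted p = 0.0113 by limma), also the only one of the 16 on which the groups did not overlap, against 8.7% of all. The other 3 Fabp4 probe sets differed by -0.030, 0.034 and -0.038.

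The spread between replicates set how much of a genotype difference could be seen. Ucp1 was 0.73 higher in knockout, with a 95% interval from -2.34 to 3.80, so that large differences of either sign lie inside it. Adipoq differed by 0.16, with an interval from -2.19 to 2.51, and Car3 by -0.044, from -1.56 to 1.47. The margin of the interval to either side had a median of 0.43 over the 16 probe sets and of 0.20 over all probe sets. For Ucp1 the margin was 3.07, or 8.39-fold, for Adipoq 2.35, for Car3 1.52 and for Thrsp 1.11, while for the brightest Fabp4 probe set it was 0.17.

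**Figure D3:**
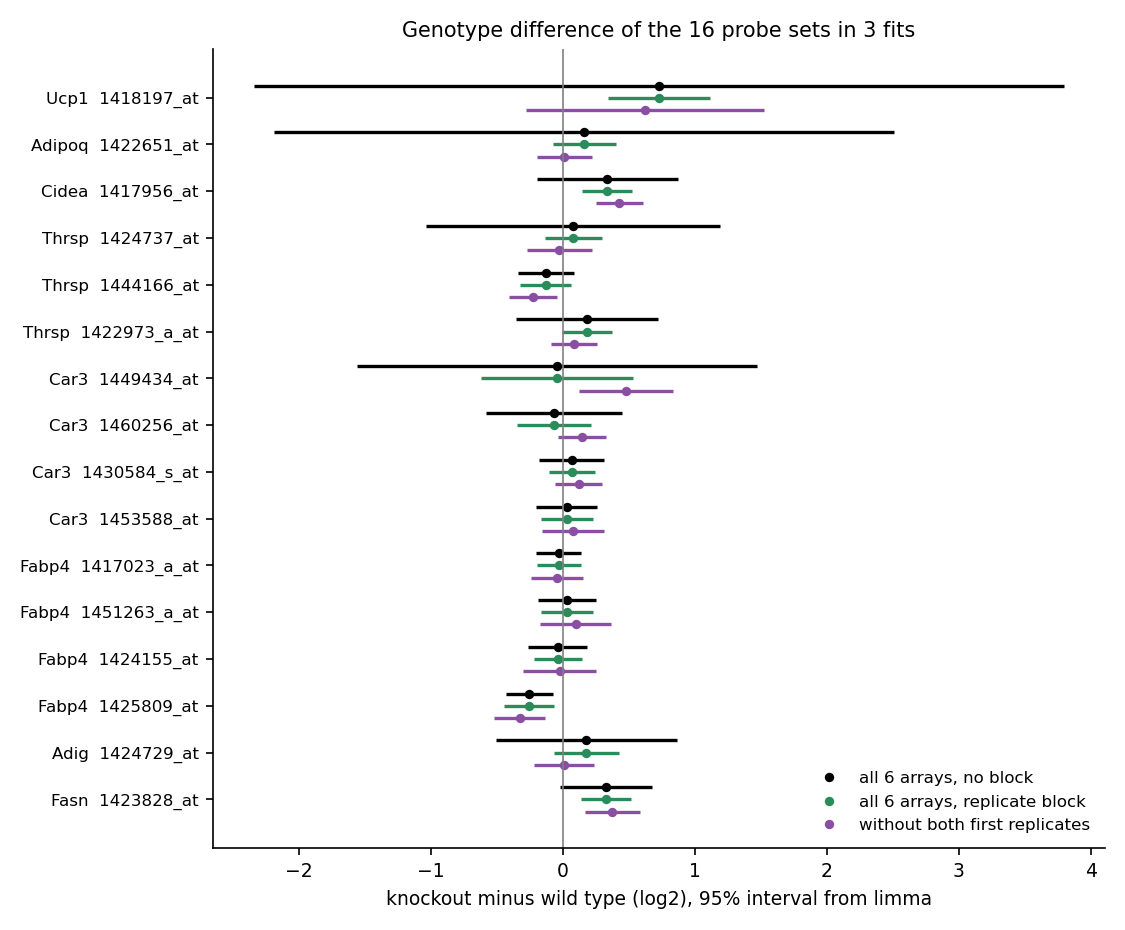
Knockout minus wild type (log2, horizontal axis) with the 95% interval from limma for each of the 16 probe sets, in the fit of all 6 arrays, in the same fit with the replicate number as a block, and without the replicate 1 arrays. The interval of Ucp1 runs from -2.34 to 3.80 in the first and from 0.34 to 1.12 with the block.

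Within the numbered pairs, Ucp1, Cidea and Fasn were higher in knockout in all 3, as was a dimmer Thrsp probe set: 4 of the 16, against 12.9% of all probe sets. With the replicate number as a block, the margin for Ucp1 was 0.39 and for Adipoq 0.24, and the median over the 16 was 0.19. No fat probe set passed in that fit either, where 20 of all probe sets did (0.0444%): the smallest adjusted p was 0.396, for Ucp1, and 4 of 16 had an unadjusted p under 0.05, against 6.49% of all. Ucp1 differed by 0.94, 1.19 and 0.062 in pairs 1, 2 and 3, with almost no difference in the third pair. Cidea differed by 0.15, 0.40 and 0.46 (adjusted p = 0.445 by limma with the block), and Fasn by 0.23, 0.25 and 0.50 (adjusted p = 0.464).

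Without the replicate 1 arrays, 4 arrays with low fat remained, and again none of the 16 passed (smallest adjusted p = 0.317, for Cidea). On these arrays Adipoq differed by 0.012 between genotypes, with an interval from -0.20 to 0.22. Cidea was 0.43 higher in knockout (interval 0.25 to 0.61) and Fasn 0.38 higher (0.17 to 0.58). Car3, at -0.044 with all arrays, was 0.48 higher (0.12 to 0.83), since the wild-type array with the highest Car3 had been left out. Ucp1 kept a wide interval, from -0.28 to 1.52, with knockout replicate 2 at 6.68. In this comparison 5 of 16 had an unadjusted p under 0.05, against 10.9% of all probe sets, of which 3 (0.00666%) passed after adjustment.

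The other fat genes showed no genotype difference that passed (0 genes of any list by limma, with or without the block). Of the other adipocyte genes 13 of 20 were higher in knockout, of the lipogenesis genes 14 of 18, of the brown fat genes 9 of 18 and of the secreted factors 5 of 12, against 50.2% of all genes. An unadjusted p under 0.05 was found for 0 of the 8 fat markers, 2 of 20 adipocyte, 2 of 18 lipogenesis, 2 of 18 brown fat and 0 of 12 secreted factor genes, against 3.93% of all genes. Plin4 was at 8.57, 8.67 and 8.67 in wild type and at 8.81, 9.08 and 9.18 in knockout (difference 0.39; adjusted p = 1.00, and 0.312 with the block, by limma), and the groups did not overlap. Acly, Acaca, Acacb and Scd1 did not pass, with differences of 0.12, 0.089, 0.11 and 0.15. The largest difference of that list was in the other direction, in Me1, which supplies NADPH for lipogenesis (-0.31, unadjusted p = 0.0136 and adjusted p = 1.00 by limma). Of the genes that brown fat shares with heart muscle, 7 of 16 were higher in knockout, and 3 had an unadjusted p under 0.05 by limma. Pdk4 had the largest difference among them, -0.72, and its groups did not overlap. Its unadjusted p was 0.00314 by limma, and its adjusted p with the block was 0.155. The lymphoid and thymus markers were lower in knockout in 17 of 20, and the myeloid markers in 10 of 11, 5 of them with an unadjusted p under 0.05.

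With the fat level in the fit, more genes passed between the genotypes. The fat level was 8.66 and 8.85 on the replicate 1 arrays and between 7.08 and 7.45 elsewhere. Some of its genes had been chosen by their height in replicate 1, so nothing about fat is read from the rise in calls. When each array's fat level was entered as a covariate, 28 of the 45021 probe sets that are not fat markers passed (0.0622%), 17 higher and 11 lower, against 3 without it. The standard error of the genotype difference was smaller for 99.7% of these probe sets, with a median of 0.077 against 0.089. The 3 that passed without it, a pair for Prm1 and 1 for Cox6a1, were among the 28. The 28 stood for 21 named genes and 2 unnamed probe sets. All 28 had the same direction without the covariate. The fat level differed little between the genotypes (7.62 against 7.84), so it could hardly change a direction. On 5 of the 28 the replicate 1 arrays were both above or both below the other 4. Of all probe sets, 16.6% had both above and 14.7% both below.

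Myh7, the slow myosin of the fetal ventricle, was at 8.18, 9.53 and 9.47 in wild type and at 9.41, 10.91 and 11.59 in knockout, lowest in replicate 1 of each genotype, the arrays with the highest Ucp1. Its difference was 1.58 ± 0.52 (SE; adjusted p = 1.00 by limma) without the covariate and 1.81 ± 0.14 (adjusted p = 0.00614) with it. Tnni1, the slow troponin of fetal muscle, was at 10.49, 12.23 and 12.14 in wild type and at 11.81, 12.76 and 12.83 in knockout, and its adjusted p by limma went from 1.00 to 0.035. Singled out after its values were seen, Tnni1 did not pass with the block (adjusted p = 0.133 by limma), with the batch term (0.112) or with Ucp1 as the covariate (0.0826). One probe set of Kcnd2, a potassium channel of the transient outward current, was at 6.04, 5.48 and 5.44 in wild type and at 5.53, 4.80 and 4.84 in knockout, highest in replicate 1 of each genotype, and its adjusted p by limma went from 1.00 to 0.0218. Cox8a, which was level within each genotype, went from an adjusted p of 0.151 to 0.0285 by limma and did not pass with the block (0.056, and 0.0692 for its second probe set). The others that passed and were named by rank of p were Hamp, Bex4, Efnb3, Aldh1b1, Art1 and Arhgap20.

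**Figure D4:**
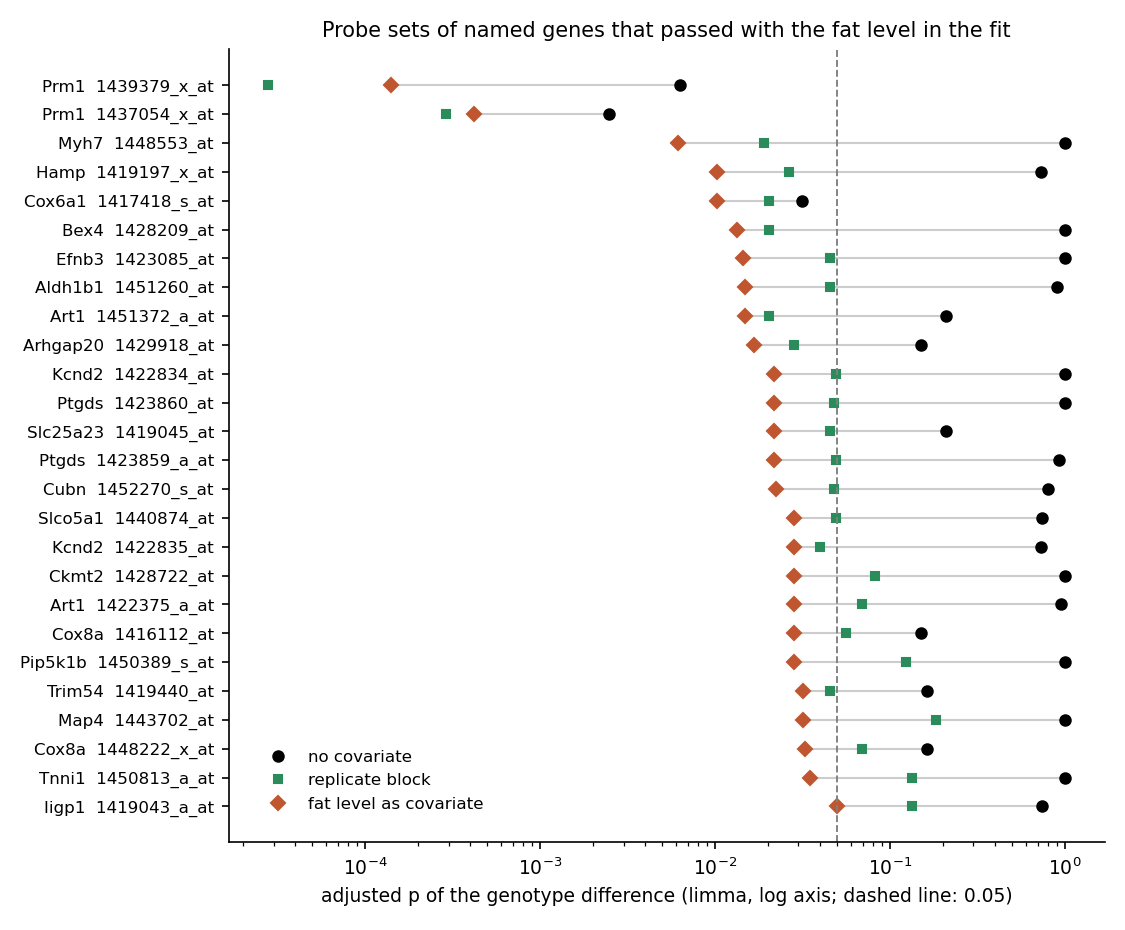
Adjusted p of the genotype difference (limma, log axis) for the 26 probe sets of named genes that passed with the fat level as a covariate, without a covariate, in the blocked fit and with the fat level. The dashed line marks 0.05; 3 of them lie to its left without a covariate.

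More probe sets than the 3 of the main fit also passed in other fits that set the replicate 1 arrays apart. Array weights, without such a term, gave 24, and leaving out both replicate 1 arrays gave 3. Why the counts moved was not tested. With Ucp1 alone as the covariate 28 probe sets passed, 26 of them shared with the fat level. With replicate 1 against the rest as a batch term 24 passed, 23 of them shared, and when the replicate number was a block 20 passed, of which 18 were shared (64.3% of the 28). The fat level and whatever else sets the replicate 1 arrays apart, the lymphoid and endothelial markers among it, cannot be told apart with these 6 arrays. The count also depended on single arrays: leaving out wild-type replicate 1 gave 4, leaving out wild-type replicate 2 gave 6, and leaving out replicate 3 of either genotype gave 3. It was 18 without knockout replicate 1 and 46 without knockout replicate 2, where only low-Xist knockout arrays remain.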

How the data were processed

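Heart RNA of 6 samples, 3 of each genotype, went on 1 Affymetrix array per sample. The values deposited by the authors are on a log2 scale and come from RMA, run with affy in R per the design text of the series. GCOS 1.4 is named by the submitters' processing notes. RMA sets all arrays to a common distribution before it summarises probes. Differences are therefore relative to that distribution. No depth applies to arrays, and no intensities or detection calls were used.

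The 64 control probe sets were left out. Names of probe sets come from the platform's annotation, updated through their gene identifiers (GRCm38.p6): 34945 named 1 gene, 932 several and 9160 none. In the lists and the fat level, the probe set with the highest mean stood for its gene. The 17 other lists held 207 genes, of which 189 were measured. The fat markers and the lists were chosen with earlier results of these data known.

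Genotypes were compared with limma 3.58.1 under R 4.3.3 (two-sided moderated test, Benjamini-Hochberg over all probe sets, threshold 0.05), without a block, and the fit was checked on simulated data. Arrays were taken as separate mice. Alternatives were the replicate block, a batch term or omission of the replicate 1 arrays, the fat level as a covariate, other normalizations, gene-level summaries, filters, variance models, array weights and leaving out each array. To check whether numbers pair the arrays, each array's deviations from its group mean were compared. Same numbers correlated at 0.54, 0.18 and 0.13 over genes, all above the 0.1 set for treating numbers as pairs. Crossed numbers 2 and 3 correlated at 0.35 and 0.30, so the data do not tell those apart. Although the 0.1 was met, the main fit was kept without a block, and the blocked fit is given beside it.

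Named genes are all the fat markers, the leading entries of each list in list order, the 10 genes most like and 5 most opposite to the fat level (clone names and predicted symbols left out), and up to 10 probe sets by p among those past the threshold; Xist, Kcnd2, Tnni1, Cox8a and those marked in the text were singled out after their values were seen.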

Additional observations from a re-analysis of the deposited data

How the results depend on the processing

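All 300 alternative values of the 16 fat probe sets missed the threshold (adjusted p from 0.0518, for Ucp1 with the replicate block and without replicate 3, to 1.00), and 0 of the 16 passed in every setting run. Directions were less stable: 35 of the 300 values were reversed, in 11 of the 16 probe sets. With array weights Ucp1 differed by -0.39, Adipoq by -0.44, Thrsp (brightest probe set) by -0.30 and the Fabp4 probe set at 8.07 on average by 0.084. Without the replicate 1 arrays, with or without the block, Thrsp differed by -0.026 and the brighter pair of Car3 probe sets by 0.48 and 0.15. With the block and without replicate 2 of both genotypes, Fabp4 differed by 0.0024 and 0.021, and without replicate 3 the dimmest Car3 probe set by -0.068 and the second Fabp4 probe set by -0.076. Leaving out 1 array at a time gave -0.74 to 2.09 for Ucp1, -1.02 to 1.19 for Adipoq, -0.49 to 0.54 and -0.10 to 0.37 for 2 Thrsp probe sets, -0.20 to 0.43 for Adig, -0.53 to 0.87, -0.23 to 0.24 and -0.021 to 0.12 for 3 Car3 probe sets, and -0.056 to 0.019, -0.067 to 0.10 and -0.14 to 0.033 for 3 Fabp4 probe sets. The median margin of the interval over the 16 was 0.43, with the block 0.19 and without the replicate 1 arrays 0.21.

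Over all probe sets 3 passed; 20 did with the replicate block, 24 with replicate 1 as a batch term, 28 with the fat level, 6 with trend and robust variance and 24 with array weights. None (0) passed with 1 probe set per gene, without probe sets ending in _x_at or _s_at, or without probe sets of mean under 5; 1773 had an unadjusted p under 0.05 by limma in the fit of all probe sets. Leaving out 1 array gave 1 to 15, and the block without replicate 2 of both genotypes gave 55. With the fat level, leaving out 1 array gave 3 to 46. The counts of 15, 55 and 46 came from fits without knockout replicate 2. There the knockout arrays left were low in Xist and the wild-type arrays high. Genotype and Xist level cannot be told apart in those fits. The block, the batch term and the fat level each set the replicate 1 arrays apart in the fit. Why the counts moved in these or the other settings was not tested. The Ucp1 covariate and the fits leaving out an array or a pair beside the fat level or the block were chosen after seeing the data.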
